A study of Rattus norvegicus with 6 samples.

Results

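Lysosomal and phagocyte lipid-handling transcripts were followed through the glia and myeloid cells of the infarcted rat brain. The set holds 34 genes for lysosomal proteases, hydrolases and their activators, lysosomal membrane proteins, transcription factors of the lysosome, phagocyte receptors and proteins of lipid uptake and storage. They were picked by gene symbol, and 32 of the 34 were found among the 30560 genes of the count matrices, whereas Lamp2 and Fabp5 were not analysed here. Single nucleus RNA sequencing had been run on coronal brain tissue through the lesion from 11 male wild type Wistar rats aged 12 weeks, 48 h after surgery, with left and right hemispheres kept apart. In 7 rats a filament closed the right middle cerebral artery permanently (MCAO), and lesion size on magnetic resonance images put 3 in a moderate (mMCAO) and 4 in a severe (sMCAO) class, while the other 4 rats underwent Sham surgery without the closure. Each of the 6 libraries pooled hemispheres of one side and one severity. Sham L and Sham R are left and right of the same 4 Sham rats, the contra libraries of mMCAO and sMCAO are left, opposite the infarct, and the ipsi libraries are right and infarcted. Each group, Sham, MCAO contra and MCAO ipsi, therefore held 2 libraries. The Sham pair came from the same animals and the MCAO pairs differed in severity, so p-values measure the spread between such pools and not between single rats. Pairs of values below are given for L then R in Sham, and for mMCAO then sMCAO on the contra and the ipsi side.

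Lysosomes digest what a cell engulfs or recycles. Cathepsins and other proteases cut proteins, hydrolases with their activator proteins take apart glycans and sphingolipids, and a proton pump keeps the lumen acid. TFEB, TFEC and MITF belong to one family of transcription factors that bind E-box type motifs near lysosomal genes. In injured brain, microglia and infiltrating macrophages clear myelin and dead cells, take up lipid through receptors such as TREM2 and store it in droplets coated by PLIN2. GPNMB, CD9, CD63 and galectin-3 (Lgals3) are known marks of such lipid-laden phagocytes.

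Across all 6 libraries 73649 nuclei were kept, and total counts of unique molecular identifiers (UMIs, 1 per captured transcript; CPM are UMIs per 1000000 UMIs of a class in a library) ran from 33012945 to 52513380 per library. Nuclei were put into classes by marker genes, none of them a member, with thresholds set after the data were seen. Microglia numbered 11 and 6 nuclei in Sham, 149 and 81 contra and 589 and 677 ipsi. Macrophages numbered 0 and 1 in Sham, 4 and 18 contra and 78 and 462 ipsi. Other myeloid nuclei had equal UMIs of microglia and macrophage markers, or none of either, and entered neither class. They numbered 3 and 9 in Sham, 39 and 25 contra and 255 and 459 ipsi. Per library there were 124 to 563 astrocytes, 451 to 1906 oligodendrocytes, 63 to 322 oligodendrocyte precursor cells (OPCs) and 2989 to 11637 neurons. Markers held out of the gates were ranked over the classes, but macrophage markers were not ranked against the myeloid nuclei of neither class. Of 46 such markers 43 were highest in the class they mark, and the other 3 were not. The neuron gene Map2 stood at 1036 CPM in neurons but 1204 in OPCs and 1134 in astrocytes, Sox10 at 121 in OPCs and 131 in oligodendrocytes, and Crybb1 at 0.489 in microglia and 4.40 in astrocytes. Among the 43, the macrophage markers Itga4 and Plac8 stood at 172 and 17.6 CPM in macrophages. In the myeloid nuclei of neither class they were higher, at 216 and 21.6 CPM. Over all libraries Gfap stood at 2499.7 CPM in astrocytes and at most 59.0 in the other named classes, and Hapln2 at 454 in oligodendrocytes. C1qb stood at 169 in microglia and 85.0 in macrophages, and Lyz2 at 282 in macrophages and 53.8 in microglia. Macrophages also carried Cd74, a gene of antigen presenting cells, at 529 CPM against 66.1 in microglia, and Flt3, a receptor of dendritic cells, at 114 against 12.7. Of the other dendritic cell genes checked, Zbtb46 was at 20.9 and 24.95 CPM in these classes, and Xcr1, Clec9a and Ccr7 stood below 10 CPM in both. Any pair of libraries had 118 to 280 nucleus barcodes in common.

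The promoters of 4 members that changed in glia are shown here because they hold the letters that the lysosomal transcription factor family is known to bind. RefSeq listed a promoter window (250 bases before to 50 after a gene's start, build GRCr8, matched by symbol) for 24 of the 32 members, and Asah1, Ctsb, Psap, Hexa, Lgals3, Atp6v0d2, Lpl and Tyrobp had none in that table. The palindrome CACGTG stood in 6 of the 24 windows (25%; Cd63, Ctsd, Gaa, Lamp1, Mcoln1 and Plin2) and in 7.08% of the windows of 27457 genes. The longer TCACGTG, which contains that palindrome, stood in 5 (20.8% against 3.58%), and TCATGTG, reverse complement CACATGA, in 4, Cd63, Ctss, Gpnmb and Grn (16.7% against 3.85%), both strands searched. Of the other members called in glia, Cd9, Ctsl and Mitf had windows without a match, and Ctsb had no window. A match is a description of the letters and not evidence of binding. Below are the 250 bases before the start, read along the gene's strand, with matches in capitals: Ctsd (chr1:206968822-206969071, strand minus), Gpnmb (chr4:79340878-79341127, strand plus), the first of the Plin2 starts listed (chr5:106229019-106229268, strand minus) and Cd63 (chr7:1921894-1922143, strand plus).
Ctsd: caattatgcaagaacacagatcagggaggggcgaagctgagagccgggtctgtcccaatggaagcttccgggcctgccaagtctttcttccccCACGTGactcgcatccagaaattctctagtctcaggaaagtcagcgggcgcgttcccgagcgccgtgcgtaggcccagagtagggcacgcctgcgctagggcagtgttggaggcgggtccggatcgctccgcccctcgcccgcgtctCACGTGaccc
Gpnmb: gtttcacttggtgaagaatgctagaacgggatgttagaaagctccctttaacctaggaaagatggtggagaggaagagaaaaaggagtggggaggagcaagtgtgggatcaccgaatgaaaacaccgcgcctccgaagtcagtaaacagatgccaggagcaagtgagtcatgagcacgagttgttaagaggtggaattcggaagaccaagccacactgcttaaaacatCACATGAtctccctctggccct
Plin2: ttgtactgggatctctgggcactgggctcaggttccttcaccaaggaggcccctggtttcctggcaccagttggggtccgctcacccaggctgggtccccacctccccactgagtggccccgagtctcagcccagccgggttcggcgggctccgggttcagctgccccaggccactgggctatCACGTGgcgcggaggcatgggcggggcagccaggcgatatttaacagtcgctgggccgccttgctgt
Cd63: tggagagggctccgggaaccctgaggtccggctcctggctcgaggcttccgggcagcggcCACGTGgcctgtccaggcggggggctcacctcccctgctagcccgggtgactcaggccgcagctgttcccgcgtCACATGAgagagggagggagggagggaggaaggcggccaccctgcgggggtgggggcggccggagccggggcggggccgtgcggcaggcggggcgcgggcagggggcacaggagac

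Among the 6 classes compared, the 32 members together took up the largest share of the UMIs in macrophages, in each of the 4 MCAO libraries, and within each class their sum was highest in sMCAO ipsi. Their summed level in microglia was 3774 and 3474 CPM contra and 3712 and 6175 ipsi. In macrophages it was 6902 and 7394 CPM contra, from 4 and 18 nuclei, and 6717 and 9827 ipsi. The mMCAO ipsi value thus lay below both contra values in macrophages, and in microglia below that of mMCAO contra. In astrocytes the sum was 857 and 922 CPM in Sham, 1064 and 1204 contra and 1556 and 2118 ipsi. Oligodendrocytes had 1056 and 966 CPM in the Sham libraries, 1209.8 and 1196 in the contra libraries and 1444 and 2171 in the ipsi libraries. OPCs had 658 and 714 CPM in Sham, 766 and 601 contra and 925 and 1221 ipsi. In all 3 glial classes both ipsi libraries lay above the other 4. In neurons the sum was 394 and 404 CPM in Sham, 454 and 482 contra and 472 and 586 ipsi. The mMCAO ipsi value of neurons thus lay between their contra values.

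**Figure D1:**
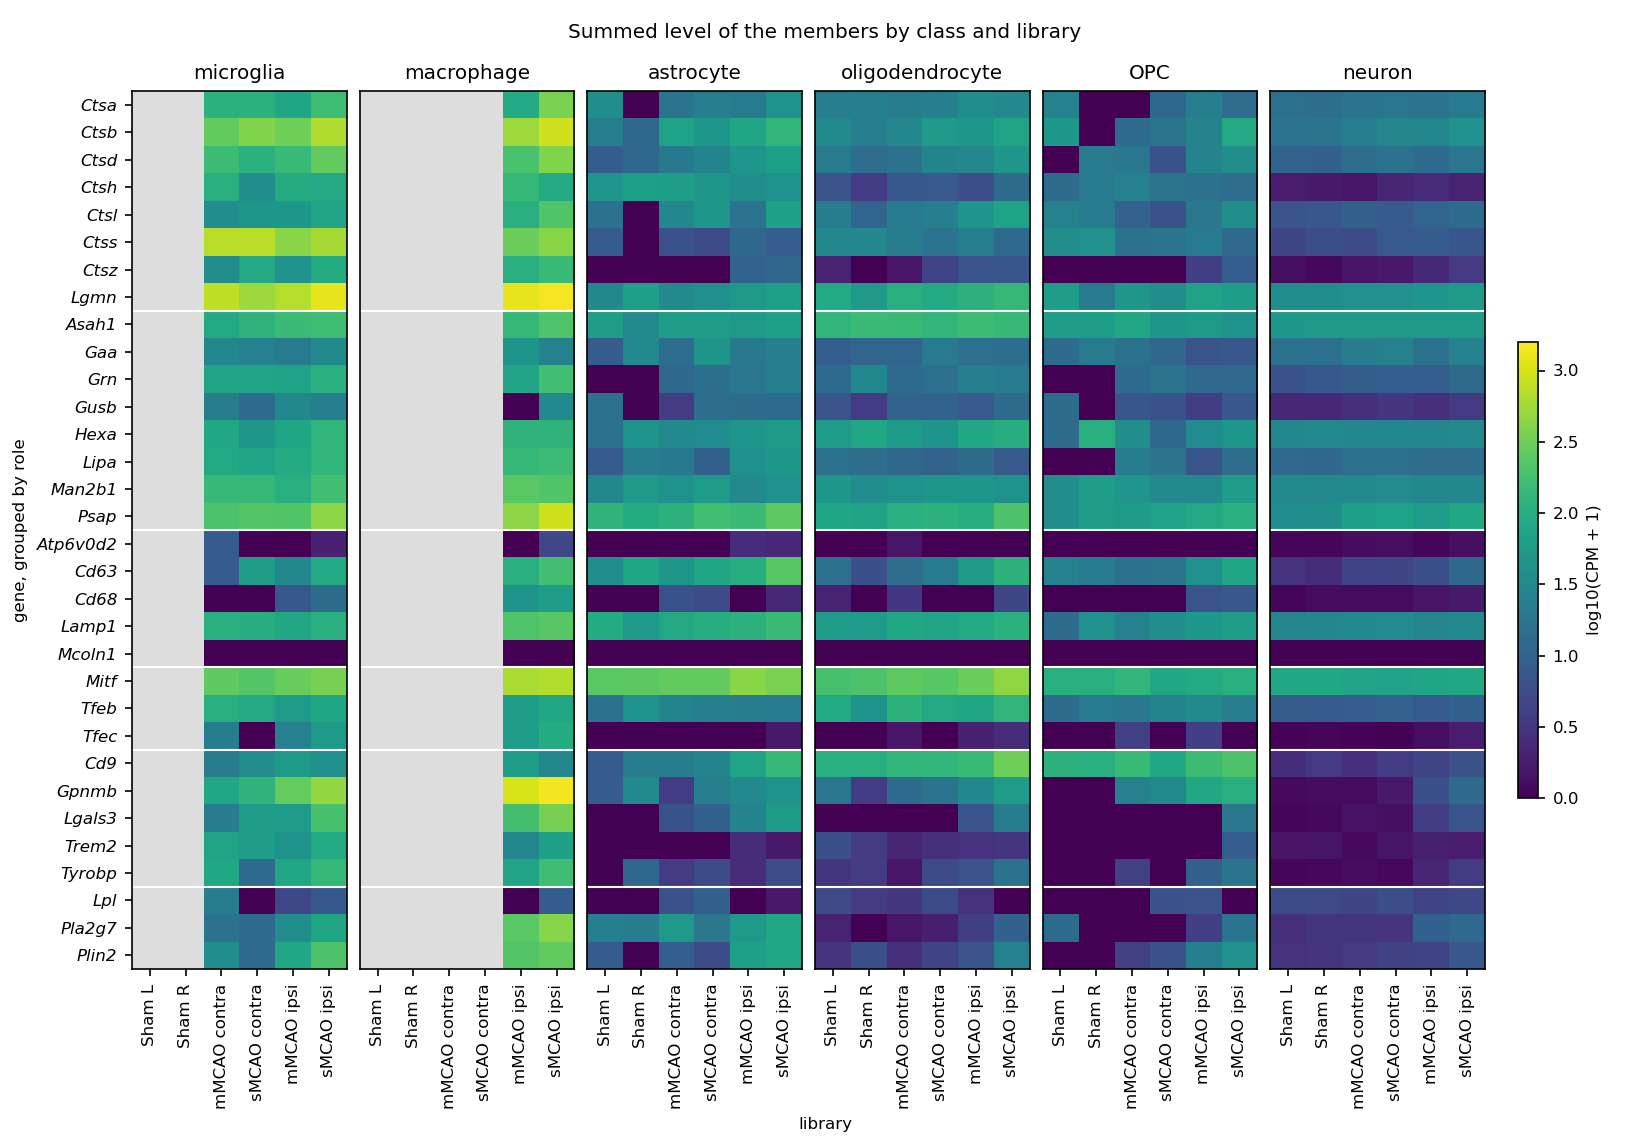
Heat map of the level of each of the 32 members (vertical axis, grouped by role) in each cell class and library (horizontal axis), coloured by log10(CPM + 1); grey cells are microglia or macrophage sums of under 50000 UMIs. In the ipsi libraries Gpnmb, Pla2g7 and Psap are brightest in macrophages, and Mcoln1 is at 0 in microglia, macrophages, astrocytes, oligodendrocytes and OPCs.

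In microglia, the resident phagocytes of the brain, no member passed the test between infarcted and opposite hemispheres. Of the 26 members given one by one, 21 were highest in sMCAO ipsi among the 4 MCAO libraries. These 26 were picked by their UMIs in ipsi myeloid nuclei or by passing a test in another class, which favours members high there. No share over all genes was computed for this count. The 2 Sham libraries held 11 and 6 microglia, too few for a test, so MCAO ipsi was compared with MCAO contra over 4 libraries. Of the 28 members tested in microglia 0 were called (adjusted p below 0.05 with a log2 fold change of 0.6 or more in size), as were 0% of all 8035 genes in the upward and 0% in the downward direction (edgeR's quasi-likelihood test). At an unadjusted p under 0.05 stood 3 of these members and 518 of all 8035 genes, and DESeq2 called 0. The median log2 fold change was 0.47 over these members and 0.01 over all genes. Without mMCAO ipsi the count was 5 (12.0%) and without sMCAO ipsi 1 (0.237%), with the share of all genes called in the same fit in parentheses, here and for the other alternatives below.

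Among receptors and surface proteins in microglia, Gpnmb, a transmembrane glycoprotein of phagocytes, stood at 80.2 and 121 CPM contra and 277 and 479 ipsi, while no UMI was counted in the Sham microglia. Both ipsi libraries lay above both contra libraries (log2 fold change 1.86 ± 0.38 (SE), edgeR adjusted p = 0.698). Lgals3, which encodes galectin-3, a lectin that binds glycans on damaged lysosomes, was at 58.0 and 186 CPM ipsi against 21.9 and 60.3 contra. Trem2, a lipid-sensing receptor, was at 72.9 and 60.3 CPM contra and 44.8 and 89.4 ipsi, and these values overlap between sides. Tyrobp, the signalling adaptor of TREM2, was at 80.4 and 134 CPM ipsi against 80.2 and 12.1 contra. Its low value in sMCAO contra rests on 1 UMI. Cd9, a tetraspanin of the cell surface, stood at 21.9 and 36.2 CPM contra and 54.0 and 39.0 ipsi. Both ipsi values lay above both contra values, which rest on 3 and 3 UMIs.

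The lipid genes Plin2 and Pla2g7 had the largest fitted differences between sides in microglia. Plin2, which coats lipid droplets, was at 36.4 and 12.1 CPM contra and 83.0 and 199.7 ipsi (log2 fold change 2.30 ± 0.69 (SE), edgeR adjusted p = 0.698). Pla2g7, a secreted phospholipase that cleaves platelet-activating factor, was at 36.9 and 74.2 CPM ipsi against 14.6 and 12.1 contra (log2 fold change 1.93 ± 0.71 (SE), edgeR adjusted p = 0.698). For both genes the contra values rest on few UMIs, 5 and 1 for Plin2 and 2 and 1 for Pla2g7. To be tested, a gene had to reach a set level of counts in any 2 libraries. Pla2g7, and also the transcription factor gene Tfec, reached it in the ipsi libraries only. Pla2g7 and Tfec were thus tested because they were high there, which bears on their fold changes and on the median over the members tested in microglia.

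Among the proteases in microglia, Lgmn, the asparaginyl endopeptidase legumain, was at 787 and 519 CPM contra and 690.2 and 1203 ipsi. Ctsb, a cysteine protease, was at 315 and 654 CPM ipsi against 269.6 and 386 contra. Ctss, a cysteine protease of antigen presenting cells, was at 714 and 712 CPM contra and 425 and 587 ipsi, with both contra libraries above both ipsi libraries and a fitted log2 fold change of -0.58 ± 0.25 (SE). Ctss was also counted in the few Sham microglia, with 8 UMIs in Sham L and 4 in Sham R. The aspartic protease Ctsd was at 148 and 265 CPM ipsi against 153 and 109 contra. Ctsa, a carboxypeptidase that shields other hydrolases, was at 109 and 109 CPM contra and 76.4 and 159.8 ipsi. Ctsz, another cysteine protease, was at 43.5 and 91.3 CPM ipsi against 36.4 and 84.4 contra. Ctsl, cathepsin L, was at 36.4 and 48.2 CPM contra and 50.1 and 72.3 ipsi, with both ipsi libraries above both contra libraries. Ctsh, cathepsin H, was at 90.9 and 83.7 CPM ipsi against 102 and 36.2 contra, without an order by side. Across these 8 proteases only Ctss had its contra values above its ipsi values.

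Of the hydrolases and activators in microglia, Psap, the precursor of the saposins that help break down sphingolipids, was at 197 and 217 CPM contra and 211 and 436 ipsi. Man2b1, a lysosomal mannosidase, was at 103 and 167 CPM ipsi against 138 and 133 contra. Asah1, acid ceramidase, was at 87.4 and 121 CPM contra and 151 and 159 ipsi, with both ipsi libraries above both contra libraries. Lipa, lysosomal acid lipase, was at 92.2 and 125 CPM ipsi against 87.4 and 72.4 contra. Hexa, a subunit of hexosaminidase, was at 80.2 and 48.2 CPM contra and 76.4 and 125 ipsi. Grn, the precursor of the granulins, was at 69.8 and 107 CPM ipsi against 72.9 and 72.4 contra, so 3 of its 4 values lay within 4 CPM of each other. Among membrane proteins, Lamp1, a main glycoprotein of the lysosomal membrane, was at 102 and 96.5 CPM contra and 83.0 and 101 ipsi, and the sides overlapped. Cd63, a tetraspanin of late endosomes, was at 30.3 and 87.5 CPM ipsi against 7.29 and 60.3 contra, and its mMCAO contra value is 1 UMI. The transcription factor Mitf was at 262 and 217 CPM contra and 283 and 344 ipsi. Tfeb, its relative, was at 55.3 and 75.1 CPM ipsi against 102 and 84.4 contra, with the ipsi values below the contra values. Tfec, the third of the family, was at 21.9 and 0 CPM contra and 23.7 and 55.2 ipsi.

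Macrophages of the infarcted hemispheres held more Pla2g7, Gpnmb, Lgals3, Psap and Plin2 (in CPM) than microglia of the same libraries, beyond counting error. They were compared with microglia within each ipsi library. The 255 and 459 ipsi myeloid nuclei that entered neither class were left out of these ratios. In those nuclei the members summed to 5751.5 and 8932 CPM, between the sums of microglia and macrophages. With 1 library per severity no test was run, and ratios of CPM carry an exact 95% interval that covers counting error only. Over genes with at least 10 UMIs in both classes together, the interval lay above 1 for 11 of 28 members in mMCAO ipsi (4.78% of all 9590 genes) and for 18 of 30 in sMCAO ipsi (11% of 11089). It lay below 1 for 0 members in mMCAO ipsi and for 1, Ctss, in sMCAO ipsi, where 3.19% and 11.5% of all genes did. The median ratio over these members was 1.71 and 1.41. The count in mMCAO ipsi was 5 with a stricter gate of 6 marker UMIs. The 6 dendritic cell genes checked summed to 251 and 748 CPM in ipsi macrophages against 72.4 and 148 in microglia. Median UMIs per nucleus were 706 and 972 in macrophages against 816 and 1320 in microglia. The part of either in these ratios was not tested. The split between the classes can rest on 1 marker UMI, and whether it follows cell origin was not tested.

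The interval lay above 1 in both infarcted hemispheres for 10 members, Cd63, Ctsb, Gpnmb, Lamp1, Lgals3, Lgmn, Mitf, Pla2g7, Plin2 and Psap. The lipid gene Pla2g7 was at 236 and 412 CPM in macrophages against 36.9 and 74.2 in microglia (ratios 6.40 (3.24 to 12.3) and 5.56 (4.28 to 7.29)). Plin2 was at 221 and 266 CPM in macrophages against 83.0 and 199.7 in microglia (ratios 2.67 (1.41 to 4.74) and 1.33 (1.07 to 1.66)). Pla2g7 had the highest ratio of the members with at least 10 UMIs in both hemispheres. Gpnmb was at 1004 and 1379 CPM in macrophages against 277 and 479 in microglia (ratios 3.63 (2.72 to 4.79) and 2.88 (2.57 to 3.23)). Lgals3 was at 177 and 345 CPM in macrophages against 58.0 and 186 in microglia (ratios 3.06 (1.47 to 5.89) and 1.85 (1.505 to 2.27)). Trem2 and its adaptor Tyrobp had ratios of 0.659 (0.0767 to 2.57) and 0.755 (0.499 to 1.12) for Trem2 and 0.919 (0.288 to 2.26) and 1.23 (0.932 to 1.62) for Tyrobp, with all 4 intervals spanning 1. Of the membrane proteins, Cd63 was at 103 and 176 CPM in macrophages against 30.3 and 87.5 in microglia (ratios 3.41 (1.24 to 8.21) and 2.01 (1.49 to 2.71)). Lamp1 was at 207 and 231 CPM in macrophages against 83.0 and 101 in microglia (ratios 2.49 (1.29 to 4.49) and 2.29 (1.75 to 2.99)). Psap was at 443 and 941 CPM in macrophages against 211 and 436 in microglia (ratios 2.10 (1.37 to 3.12) and 2.16 (1.90 to 2.46)). The transcription factor Mitf was at 620.03 and 677 CPM in macrophages against 283 and 344 in microglia (ratios 2.19 (1.53 to 3.06) and 1.97 (1.69 to 2.28)).

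Of the proteases, Ctsb and Lgmn were higher in macrophages in both hemispheres and Ctss was lower in sMCAO ipsi, beyond counting error. Ctsb was at 531 and 933 CPM in macrophages against 315 and 654 in microglia (ratios 1.69 (1.15 to 2.40) and 1.43 (1.27 to 1.60)). Lgmn was at 1196 and 1423 CPM in macrophages against 690.2 and 1203 in microglia (ratios 1.73 (1.35 to 2.19) and 1.18 (1.08 to 1.29)). Ctss was at 295 and 422 CPM in macrophages against 425 and 587 in microglia (ratios 0.694 (0.418 to 1.09) and 0.719 (0.614 to 0.839)), with an interval below 1 in sMCAO ipsi only. Ctsl was at 103 and 214 CPM in macrophages against 50.1 and 72.3 in microglia, and Ctsa at 88.6 and 358 CPM in macrophages against 76.4 and 159.8 in microglia. For both the interval lay above 1 in sMCAO ipsi and spanned 1 in mMCAO ipsi, where macrophages gave 7 and 6 UMIs. Ctsd (1.46 (1.21 to 1.75)), Ctsz (1.54 (1.12 to 2.10)), Tfec (1.70 (1.14 to 2.52)), Grn (1.59 (1.19 to 2.11)) and Asah1 (1.32 (1.03 to 1.69)) likewise had an interval above 1 in sMCAO ipsi and spanning 1 in mMCAO ipsi, and the reverse held for Man2b1 (2.30 (1.25 to 3.97) in mMCAO ipsi). Cd68, a lysosomal glycoprotein used as a macrophage marker, had a ratio of 5.00 (2.56 to 10.4) in sMCAO ipsi and under 10 UMIs in mMCAO ipsi. For Ctsh, Hexa, Lipa, Tfeb, Cd9, Gaa, Gusb and Lpl the interval spanned 1 in each hemisphere in which they had 10 UMIs. Macrophages were sparse outside the infarct, 4 nuclei in mMCAO contra and 18 in sMCAO contra, and the 18 nuclei of sMCAO contra gave 15 Gpnmb UMIs (859.8 CPM) and 30 Lgmn UMIs (1719.6 CPM).

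**Figure D2:**
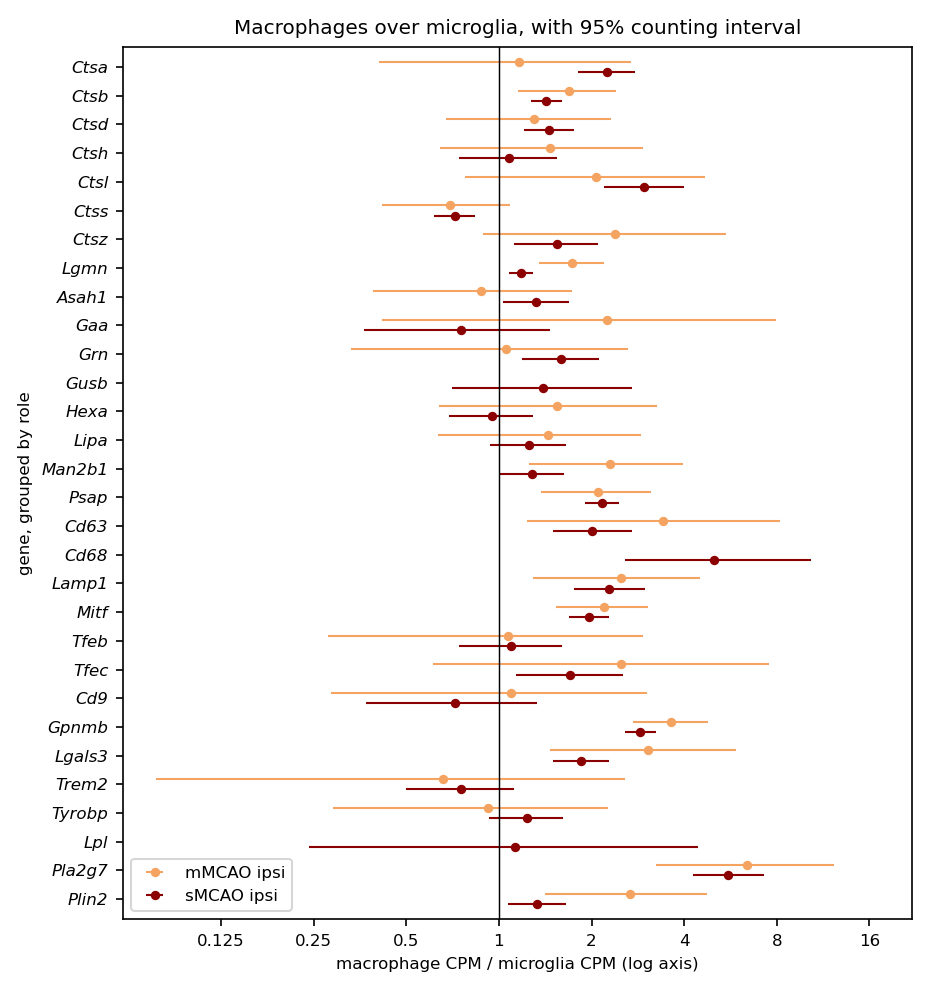
Macrophage CPM over microglia CPM (horizontal, log axis) for each member with at least 10 UMIs (vertical, grouped by role), in mMCAO ipsi and sMCAO ipsi; points are the ratio and bars its exact 95% counting interval, and Gusb in mMCAO ipsi, with a ratio of 0, is not drawn. Gpnmb, Pla2g7, Cd63, Lamp1, Mitf and Psap lie to the right of 1 in both libraries and Ctss to the left of 1 in both.

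In microglia 20 of 30 members were higher in sMCAO ipsi than in mMCAO ipsi beyond counting error, and Ctsb, Lgals3 and Psap were so in macrophages, astrocytes and oligodendrocytes too. Severity is 1 library against 1, so these are ratios of CPM with counting intervals and no test. Median UMIs per nucleus also differed (816 and 1320 for ipsi microglia). The part of that depth in the ratios was not tested. In microglia the interval lay above 1 for 20 of 30 members with at least 10 UMIs and below 1 for 0, against 13.5% and 12.2% of all genes, with a median ratio of 1.68. In macrophages it lay above 1 for 7 of 29 and below 1 for 0 (2.81% and 5.05% of all genes, median ratio 1.43). In astrocytes the numbers were 9 above and 1 below of 25 (8.97% and 6.72%, median 1.28). In oligodendrocytes they were 12 above and 1 below of 26 (10.4% and 11.6%, median 1.57). In OPCs they were 2 above and 0 below of 23 (4.95% and 4.01%, median 1.32). The OPC count above 1 was 1 with the stricter gate.

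Ctsb, Lgals3 and Psap were the only 3 members with an interval above 1 in all 4 of these classes. For the protease gene Ctsb the ratio (sMCAO over mMCAO) was 2.08 (1.79 to 2.42) in microglia, 1.76 (1.25 to 2.54) in macrophages, 1.66 (1.21 to 2.33) in astrocytes and 1.497 (1.08 to 2.11) in oligodendrocytes. For Lgals3, the galectin-3 gene, it was 3.22 (2.31 to 4.57), 1.95 (1.09 to 3.84), 2.03 (1.20 to 3.66) and 3.63 (1.53 to 10.5) in the same order. For Psap, the saposin precursor, it was 2.07 (1.72 to 2.49), 2.12 (1.47 to 3.18), 1.69 (1.35 to 2.14) and 2.02 (1.62 to 2.54). In microglia the highest ratios after Lgals3 were 2.89 (1.81 to 4.78) for Cd63, 2.41 (1.81 to 3.24) for Plin2 and 2.33 (1.35 to 4.20) for Tfec. Trem2 stood at 1.996 (1.34 to 3.05) and Gpnmb at 1.73 (1.47 to 2.05). Cd9 at 0.722 (0.457 to 1.14), Ctsh at 0.921 (0.664 to 1.28) and Asah1 at 1.05 (0.822 to 1.34) had intervals spanning 1. Pla2g7 stood at 2.01 (1.29 to 3.22) but at 0.961 with the stricter gate, so its direction depends on the gate. In macrophages Ctsa, the carboxypeptidase, had the highest ratio among members counted in both libraries, 4.04 (1.82 to 11.2). In astrocytes Ctsl had the highest, 4.27 (2.23 to 9.18), and Mitf was the only member with an interval below 1 (0.826 (0.712 to 0.959)). In oligodendrocytes Plin2 had the highest, 4.16 (1.77 to 11.9), and Mitf 1.60 (1.40 to 1.82), and Ctss was the only member with an interval below 1 (0.486 (0.260 to 0.906)).

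**Figure D3:**
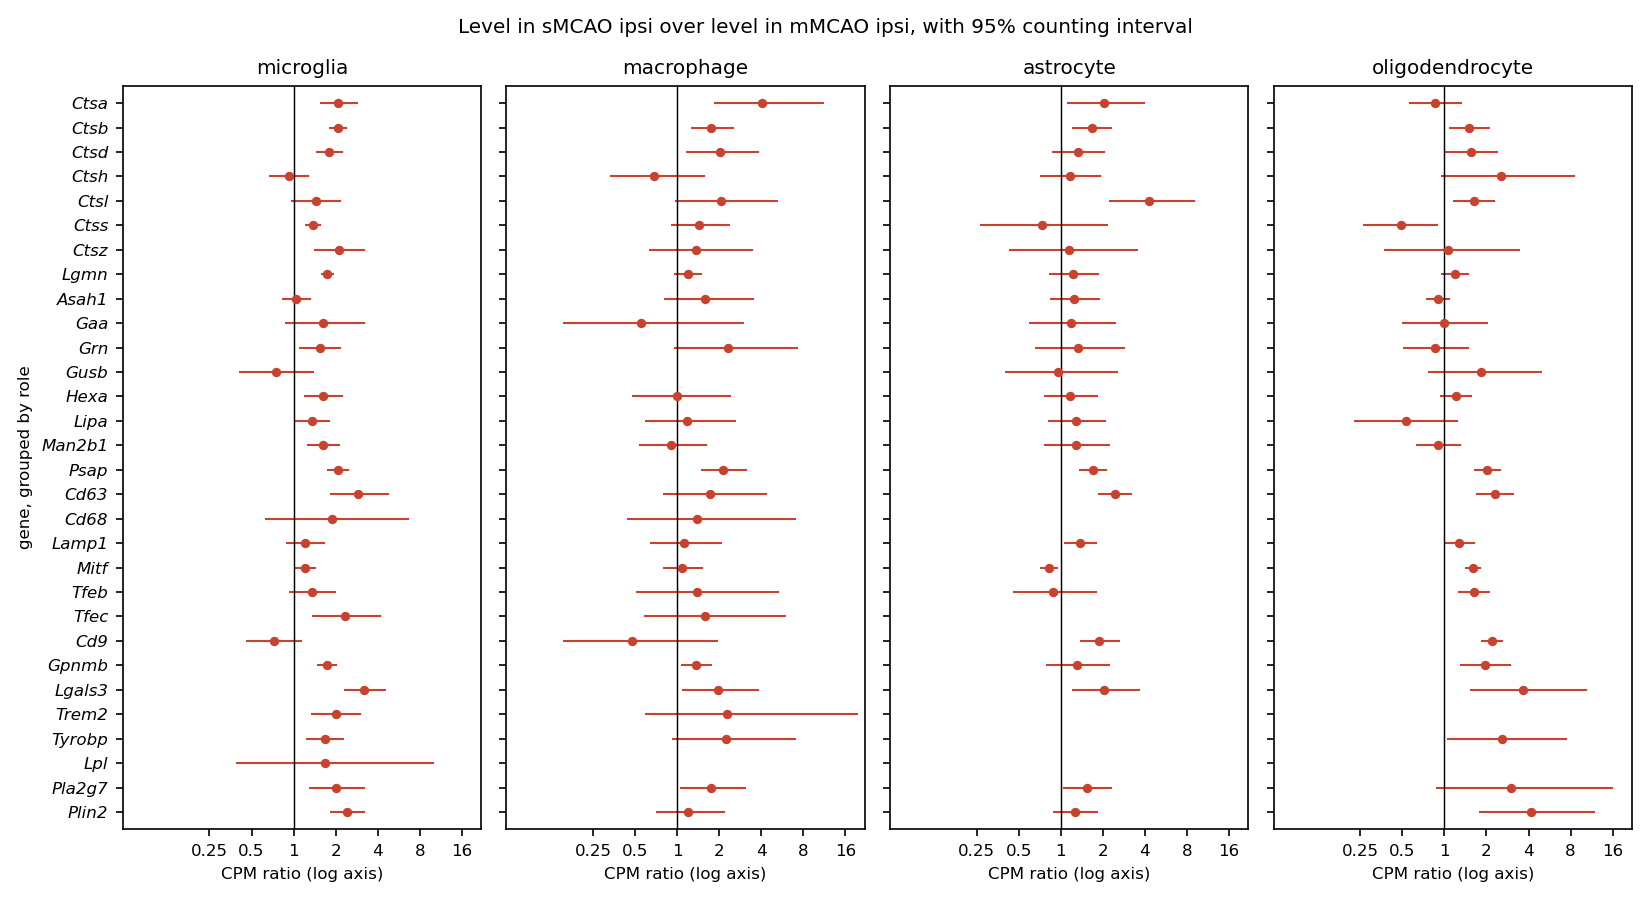
Level in sMCAO ipsi over that in mMCAO ipsi (horizontal, log axis) for each member with at least 10 UMIs (vertical, grouped by role) in microglia, macrophages, astrocytes and oligodendrocytes; points are ratios of CPM and bars the exact 95% counting intervals, and Gusb in macrophages, with no UMI in mMCAO ipsi, is not drawn. In microglia 20 of 30 intervals lie above 1, and Ctsb, Lgals3 and Psap lie above 1 in all 4 panels.

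In astrocytes of the infarcted hemispheres the lipid droplet gene Plin2, the tetraspanin gene Cd9 and the protease genes Ctsb and Ctsd rose against Sham, and Plin2 and Cd9 also rose against the opposite hemisphere. Of 17 members tested in astrocytes, 4 were called higher and 0 lower in MCAO ipsi against Sham, where 6.08% and 6.44% of 6337 genes were called. Against MCAO contra 2 were called higher and 0 lower (5.32% and 3.58% of all genes). DESeq2 called 1 member, Cd9, against Sham (7.97% of all genes), where it did not call Plin2, Ctsb or Ctsd. Against MCAO contra it called 2 (3.98%). Between MCAO contra and Sham 0 were called in either direction by edgeR and 0 by DESeq2. Of these members 1 was at an unadjusted p under 0.05, beside 547 of all 6337 genes, and 0% of all genes were called higher and 0% lower. The median log2 fold change over the members tested was 0.86 against Sham and 0.72 against MCAO contra, beside 0.04 and -0.01 over all genes. To be tested, a gene had to reach the level of the filter on low counts in any 2 libraries. Plin2, Cd9, Ctsd and Lipa reached it in the ipsi libraries only. They were thus tested because they were high there, which bears on the calls and the medians. Astrocyte nuclei held a median of 769 and 630 UMIs in the Sham, 981 and 857 in the contra and 1275 and 2246 in the ipsi libraries, whose part in the comparisons was not tested. The count of members called against Sham in astrocytes was 0 (2.62%) without Sham L and 0 (2.76%) without Sham R, 9 (19.6%) without mMCAO ipsi and 1 (9.17%) with the stricter gate. The count against MCAO contra was 0 (1.19%) without mMCAO contra and 7 (18.4%) without mMCAO ipsi.

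Plin2 (ENSRNOG00000007060), which coats lipid droplets, was at 7.58 and 0 CPM in Sham, 8.10 and 4.43 contra and 65.8 and 82.9 ipsi. Both ipsi libraries lay above the other 4, with a mean of 74.4 ± 12.1 CPM (SD, n = 2) against 6.26 ± 2.60 in MCAO contra and 3.79 ± 5.36 in Sham. Plin2 rose against Sham (log2 fold change 3.94 ± 0.80 (SE), edgeR adjusted p = 0.00929) and against MCAO contra (log2 fold change 3.40 ± 0.51 (SE), edgeR adjusted p = 0.00264). The Sham value is 1 UMI in 226303, so the ratio of summed counts, 17.6, has a 95% counting interval of 3.12 to 699.5. Cd9 (ENSRNOG00000019556), the surface tetraspanin, was at 72.1 and 136 CPM ipsi against 21.6 and 26.6 contra and 7.58 and 21.2 in Sham. Its 6 values did not overlap between ipsi and the rest, and Cd9 rose against Sham (log2 fold change 2.91 ± 0.67 (SE), edgeR adjusted p = 0.0165) and against MCAO contra (log2 fold change 2.13 ± 0.43 (SE), edgeR adjusted p = 0.0102). With 3 Cd9 UMIs in Sham the ratio of summed counts was 8.80 (2.98 to 43.0). Cd9 kept its call against Sham under 12 of 14 alternatives and lost it without Sham L or Sham R. Plin2 kept its call against Sham under 10 of 14, and lost it also in DESeq2 and with the stricter gate. Against MCAO contra both kept theirs under 15 of 16 and lost it without mMCAO contra.

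Ctsb (ENSRNOG00000010331), the cysteine protease cathepsin B, was at 22.7 and 10.6 CPM in Sham, 70.2 and 48.7 on the contra side and 76.8 and 128 on the ipsi side in astrocytes. It rose against Sham (log2 fold change 2.48 ± 0.59 (SE), edgeR adjusted p = 0.0183), and its contra values lay between those of the other groups (log2 fold change 0.73 ± 0.33 (SE), edgeR adjusted p = 0.209 for ipsi against contra). Ctsd (ENSRNOG00000020206), the aspartic protease cathepsin D, was at 7.58 and 10.6 CPM in Sham, 18.9 and 26.6 contra and 47.0 and 62.2 ipsi. It rose against Sham (log2 fold change 2.54 ± 0.70 (SE), edgeR adjusted p = 0.0347), with 2 UMIs in Sham and a ratio of summed counts of 6.52 (1.77 to 54.5), and had the same order of groups as Ctsb. The calls against Sham held under 10 of 14 alternatives for Ctsb and 6 of 14 for Ctsd. Cd63 was at 97.1 and 236 CPM ipsi against 48.6 and 75.3 contra and 37.9 and 74.2 in Sham (log2 fold change 1.48 ± 0.42 (SE), edgeR adjusted p = 0.0516 against contra). It missed the threshold there, but with the rat pool as a block it was called (log2 fold change 1.30, edgeR adjusted p = 0.0136). Lipa, acid lipase, was at 7.58 and 21.2 CPM in Sham, 18.9 and 8.86 on the contra side and 39.2 and 50.2 on the ipsi side (log2 fold change 1.68 ± 0.72 (SE), edgeR adjusted p = 0.159 against Sham), with both ipsi libraries above the rest, and was not called. Its 3 Sham UMIs gave a ratio of summed counts of 3.54 (1.18 to 17.4). Lgals3 gave no UMI in either Sham library, 5.40 and 8.86 CPM contra and 26.6 and 54.2 ipsi, and it did not pass the filter on low counts. Gpnmb was at 32.9 and 42.8 CPM ipsi against 2.70 and 22.1 contra and 7.58 and 31.8 in Sham, with both ipsi values above the rest, but the Sham and contra values rest on 1 to 5 UMIs a library and it was not tested. Trem2 gave 1 UMI in each ipsi library and none elsewhere.

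Mitf was at 243 and 244 CPM in Sham, 269.9 and 270.1 contra and 429 and 354 ipsi, both ipsi values above the rest (log2 fold change 0.60 ± 0.22 (SE), edgeR adjusted p = 0.0999 against Sham). Pla2g7 was at 53.3 and 81.6 CPM ipsi against 51.3 and 17.7 contra and 22.7 and 21.2 in Sham. Psap was at 121 and 95.3 CPM in Sham, 113 and 168 on the contra side and 150.4 and 255 on the ipsi side, and Lamp1 was at 91.0 and 53.0 CPM in Sham, 83.7 and 97.4 on the contra side and 111 and 152 on the ipsi side. Pla2g7, Psap and Lamp1 were highest in sMCAO ipsi and were not called. Ctsh (37.6 and 43.5 CPM ipsi against 62.1 and 48.7 contra and 45.5 and 63.6 in Sham) and Man2b1 had fitted log2 fold changes against Sham below 0, -0.45 ± 0.44 and -0.21 ± 0.51 (SE). Hexa was at 47.0 and 54.8 CPM ipsi against 32.4 and 35.4 contra and 15.2 and 42.4 in Sham, with both ipsi values above the rest. Ctsl was at 15.2 and 0 CPM in Sham, 29.7 and 48.7 contra and 15.7 and 66.9 ipsi, and Ctsa at 37.9 and 0 CPM in Sham, 16.2 and 22.1 contra and 20.4 and 41.5 ipsi, each with its mMCAO ipsi value inside the range of the other groups. Lgmn was at 30.3 and 63.6 CPM in Sham, 32.4 and 39.8 on the contra side and 53.3 and 65.5 on the ipsi side, and Asah1 at 60.7 and 31.8 CPM in Sham, 62.1 and 62.0 on the contra side and 53.3 and 66.2 on the ipsi side, with overlapping groups. These last members tested in astrocytes, Asah1, Hexa, Lgmn, Ctsa and Ctsl, had fitted log2 fold changes against Sham from 0.25 to 2.27 and were not called.

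In oligodendrocytes, the myelin-forming glia, the endosomal tetraspanin gene Cd63, the protease gene Ctsl and the transcription factor gene Mitf rose in MCAO ipsi against Sham. Of 20 members tested in oligodendrocytes 3 were called higher and 0 lower (1.24% and 2.87% of 9769 genes). At an unadjusted p under 0.05 stood 10 members and 2138 of all 9769 genes. DESeq2 called 4 members (6.8% of the genes to which it gave an adjusted p). For ipsi against contra edgeR called 0 members (0.0205% of all genes higher, 0% lower), with 7 members and 1343 of all 9769 genes at an unadjusted p under 0.05. DESeq2 called 1 there (1.11%). Between MCAO contra and Sham edgeR and DESeq2 called 0 and 0 members (0% of all genes higher, 0% lower by edgeR). At an unadjusted p under 0.05 stood 0 members there and 781 of all 9769 genes. The median log2 fold change of the members tested was 0.74 against Sham, beside 0.03 over all genes. Oligodendrocyte nuclei held a median of 658.5 and 675 UMIs in the Sham, 761.5 and 710 in the contra and 714 and 1129 in the ipsi libraries, whose part in the comparisons was not tested. The count of members called against Sham in oligodendrocytes was 0 (0%) when Sham L, Sham R, mMCAO contra or sMCAO contra was left out, 1 (3.98%) without sMCAO ipsi and 15 (18.5%) without mMCAO ipsi. Against MCAO contra it was 13 (13.9%) without mMCAO ipsi and 1 (0.417%) without sMCAO ipsi.

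Cd63 (ENSRNOG00000007650) was at 14.1 and 5.10 CPM in Sham, 12.8 and 20.5 contra and 50.7 and 116 ipsi in oligodendrocytes. Both ipsi libraries lay above the other 4, and the mean was 83.5 ± 46.5 CPM (SD, n = 2) in MCAO ipsi against 16.7 ± 5.43 in MCAO contra and 9.62 ± 6.39 in Sham. Cd63 rose against Sham (log2 fold change 2.91 ± 0.54 (SE), edgeR adjusted p = 0.0348). Against MCAO contra the fit without a block missed the threshold (log2 fold change 2.37 ± 0.44 (SE), edgeR adjusted p = 0.0970), while the fit with the rat pool as a block, and DESeq2, called it (log2 fold change 2.23, edgeR adjusted p = 0.0343). Ctsl (ENSRNOG00000018566), cathepsin L, was at 43.9 and 70.9 CPM ipsi against 20.6 and 23.1 contra and 21.2 and 10.2 in Sham. Ctsl rose against Sham (log2 fold change 1.72 ± 0.38 (SE), edgeR adjusted p = 0.0453), again with no overlap between ipsi and the rest. Mitf (ENSRNOG00000008658) was at 186 and 199 CPM in Sham, 253 and 236 on the contra side and 292 and 467 on the ipsi side. Mitf rose against Sham (log2 fold change 0.98 ± 0.23 (SE), edgeR adjusted p = 0.0482), with contra values between those of the other groups. The calls against Sham held under 8 of 14 alternatives for Cd63, 7 of 14 for Mitf and 5 of 14 for Ctsl, and all were lost when either Sham or either contra library was left out, with only the 4 libraries compared and with the stricter gate.

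Gpnmb, Cd9, Psap and Lamp1 in oligodendrocytes had their highest group mean in MCAO ipsi and were not called. Gpnmb was at 17.2 and 2.55 CPM in Sham, 12.3 and 16.2 contra and 29.2 and 56.9 ipsi (log2 fold change 1.82 ± 0.54 (SE), edgeR adjusted p = 0.0870 against Sham). Its Sham libraries differed, with 17 UMIs in Sham L and 1 in Sham R. Cd9 was at 141 and 308 CPM ipsi against 127 and 127 contra and 104 and 102 in Sham (log2 fold change 1.13 ± 0.33 (SE), edgeR adjusted p = 0.0811 against Sham). Psap was at 77.7 and 68.8 CPM in Sham, 102 and 112 on the contra side and 98.5 and 199 on the ipsi side (log2 fold change 1.01 ± 0.32 (SE), edgeR adjusted p = 0.0988 against Sham). Lamp1 was at 85.8 and 109.7 CPM ipsi against 79.2 and 72.6 contra and 57.5 and 56.1 in Sham (log2 fold change 0.78 ± 0.21 (SE), edgeR adjusted p = 0.0672 against Sham). Ctsb, Ctsd and Lgmn had fitted log2 fold changes of 1.05, 1.14 and 0.70 against Sham. Asah1 was at 128 and 150.4 CPM in Sham, 144 and 127 on the contra side and 155 and 139.7 on the ipsi side, with overlapping groups. Ctss was at 23.4 and 11.4 CPM ipsi against 21.2 and 15.4 contra and 29.3 and 30.6 in Sham, lowest in sMCAO ipsi. Lipa was at 14.1 and 12.7 CPM in Sham, 11.2 and 9.40 contra and 12.7 and 6.73 ipsi and had a fitted log2 fold change of -0.60 ± 0.47 (SE).

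Lgals3 gave no UMI in the Sham or contra oligodendrocytes and 5.85 and 21.2 CPM in mMCAO ipsi and sMCAO ipsi, but it was too sparse to be tested. Summed over both ipsi libraries it stood at 15.9 CPM. That is 7.32 times the level of 3 UMIs in the Sham total, 2.17 CPM. The exact counting interval of the ratio of summed counts, ipsi over Sham, began at 5.72. Plin2 was at 2.02 and 5.10 CPM in Sham, 1.67 and 3.42 contra and 5.85 and 24.3 ipsi, so its level stood apart in sMCAO ipsi only. Hexa, Tfeb, Ctsa, Grn, Gaa, Gusb and Man2b1 were not called in oligodendrocytes, and their fitted log2 fold changes against Sham lay between that of Man2b1, -0.01, and that of Gusb, 0.999. The 2 Sham libraries also showed the spread without infarction. The interval of Sham L over Sham R lay above 1 for 3 of 19 members (Gpnmb, Tfeb and Lgmn) and below 1 for 1 (Grn), against 3.42% and 4.52% of all genes.

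In OPCs, the progenitors of oligodendrocytes, Gpnmb rose against Sham, and Gpnmb, Cd63 and Ctsb rose against the opposite hemisphere. Of 11 members tested in OPCs 1 was called higher and 0 lower against Sham (2.62% and 3.19% of 5572 genes), and 3 higher and 0 lower against MCAO contra (5.69% and 5.1%). DESeq2 called 0 and 0 in these comparisons (4.47% and 2.87% of the genes to which it gave an adjusted p). It gave one for only 3 of the 11 members against Sham, and for all 11 against MCAO contra. Between MCAO contra and Sham 0 were called by edgeR and 0 by DESeq2 (0% of all genes higher, 0% lower). At an unadjusted p under 0.05 stood 1 member there and 387 of all 5572 genes. The median log2 fold change against Sham was 0.70 over the members tested, 0.70 with Gpnmb set at its bound, and 0.06 over all genes. OPC nuclei held a median of 842 and 648 UMIs in the Sham, 1195 and 984.5 in the contra and 954.5 and 1716 in the ipsi libraries, whose part in the comparisons was not tested. The count against Sham in OPCs was 0 (0.862%) without Sham L, and that against MCAO contra was 0 (3.58%) without mMCAO contra, 1 (4.61%) without sMCAO contra and 0 (5.54%) without sMCAO ipsi.

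Gpnmb (ENSRNOG00000008816) was at 0 and 0 CPM in Sham, 24.4 and 32.2 contra and 80.9 and 102 ipsi in OPCs. Both ipsi libraries lay above both contra libraries, which lay above Sham. No Gpnmb UMI was counted among the 129590 UMIs of the Sham OPCs and 91 among the 965288 of MCAO ipsi (edgeR adjusted p = 0.00191). Summed over both ipsi libraries Gpnmb stood at 94.3 CPM. That is 4.07 times the level of 3 UMIs in the Sham total, 23.1 CPM. The exact counting interval of the ratio of summed counts, ipsi over Sham, began at 3.25. Gpnmb also rose against MCAO contra (log2 fold change 1.68 ± 0.39 (SE), edgeR adjusted p = 0.00267). Cd63 was at 40.5 and 74.3 CPM ipsi against 15.3 and 16.1 contra and 24.8 and 20.4 in Sham. Cd63 rose against MCAO contra in OPCs (log2 fold change 1.86 ± 0.52 (SE), edgeR adjusted p = 0.0130). Gpnmb and Cd63 passed the filter on low counts through the ipsi libraries only. They were thus tested because they were high there. This bears on their calls, on the counts of members called in OPCs and on the median over the members tested in OPCs. Ctsb was at 49.6 and 0 CPM in Sham, 12.2 and 16.1 on the contra side and 26.0 and 85.6 on the ipsi side. Ctsb rose against MCAO contra (log2 fold change 2.06 ± 0.60 (SE), edgeR adjusted p = 0.0163). In Sham L, however, 4 Ctsb UMIs gave a level above that of mMCAO ipsi, so Ctsb overlapped between ipsi and Sham. Over the alternatives in which they were tested, the calls against MCAO contra held under 11 of 15 for Gpnmb, 9 of 12 for Cd63 and 9 of 12 for Ctsb, and that of Gpnmb against Sham under 11 of 13.

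Plin2 in OPCs gave no UMI in Sham and 3.05, 5.37, 23.1 and 40.4 CPM in the contra and then the ipsi libraries, but was too sparse to be tested. Cd9 was at 112 and 102 CPM in Sham, 146 and 80.5 contra and 153 and 202 ipsi (log2 fold change 0.51 ± 0.25 (SE), edgeR adjusted p = 0.216 against contra), with both ipsi values above the other 4. Psap was at 83.8 and 100.1 CPM ipsi against 54.9 and 69.8 contra and 37.2 and 61.2 in Sham, and Lamp1 was at 49.1 and 59.7 CPM ipsi against 24.4 and 37.6 contra and 12.4 and 40.8 in Sham. Neither was called. Mitf, Asah1, Man2b1, Hexa and Lgmn had fitted log2 fold changes against MCAO contra from -0.59 to 0.59 in OPCs and were not called.

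**Figure D4:**
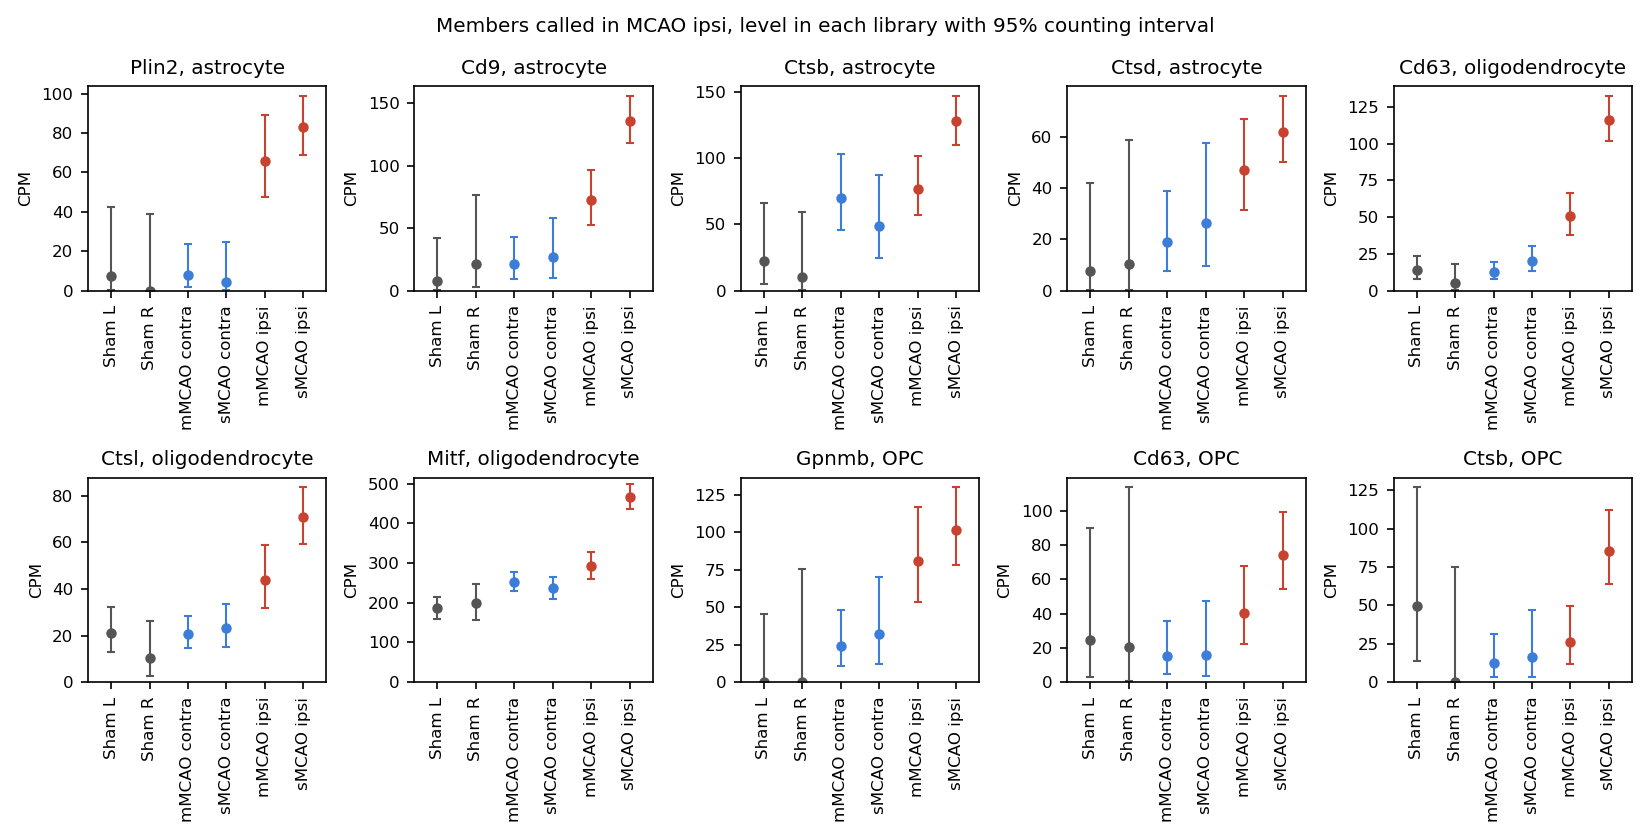
Level in CPM (vertical) of the called members in the class where they were called, in each of the 6 libraries (horizontal); each point is 1 library and its bar the exact 95% counting interval. Plin2 in astrocytes stands at 65.8 and 82.9 CPM in the ipsi libraries and Cd63 in oligodendrocytes at 50.7 and 116, above the other 4 libraries.

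Glial nuclei held few UMIs, and RNA released from broken cells can enter any droplet, so the members were also counted per nucleus beside neuron nuclei of the same library. Neuron nuclei were deeper, with a median of 4119 and 6871 UMIs ipsi, against 1275 and 2246 in astrocytes, 714 and 1129 in oligodendrocytes and 954.5 and 1716 in OPCs. In astrocytes Plin2 UMIs per nucleus were 6.17 (4.25 to 8.80) and 4.77 (3.71 to 6.12) times those of neurons in mMCAO ipsi and sMCAO ipsi (95% counting intervals). Cd9 in astrocytes had multiples of 6.23 (4.37 to 8.75) and 9.29 (7.36 to 11.8), and for Cd63 6.13 (4.53 to 8.21) and 8.04 (6.80 to 9.53). Ctsb and Ctsd were near the neuron level in astrocytes, with 0.861 (0.633 to 1.15) and 1.13 (0.958 to 1.32) for Ctsb and 1.23 (0.822 to 1.78) and 1.33 (1.05 to 1.68) for Ctsd. In oligodendrocytes Cd63 had ratios of 1.93 (1.40 to 2.64) and 1.99 (1.65 to 2.41). Ctsl (0.839 (0.602 to 1.14) and 1.08 (0.869 to 1.33)) and Mitf (0.758 (0.671 to 0.854) and 1.03 (0.947 to 1.11)) were at or near the neuron level per nucleus. In OPCs Gpnmb had 3.89 (2.52 to 5.80) and 2.50 (1.86 to 3.31) and Cd63 1.92 (1.03 to 3.31) and 1.94 (1.38 to 2.67), whereas Ctsb was below neurons, at 0.219 (0.100 to 0.418) and 0.578 (0.430 to 0.763). Neurons may express these genes too, so at a ratio near or below 1 expression in the glia cannot be told apart from free RNA.

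**Figure D5:**
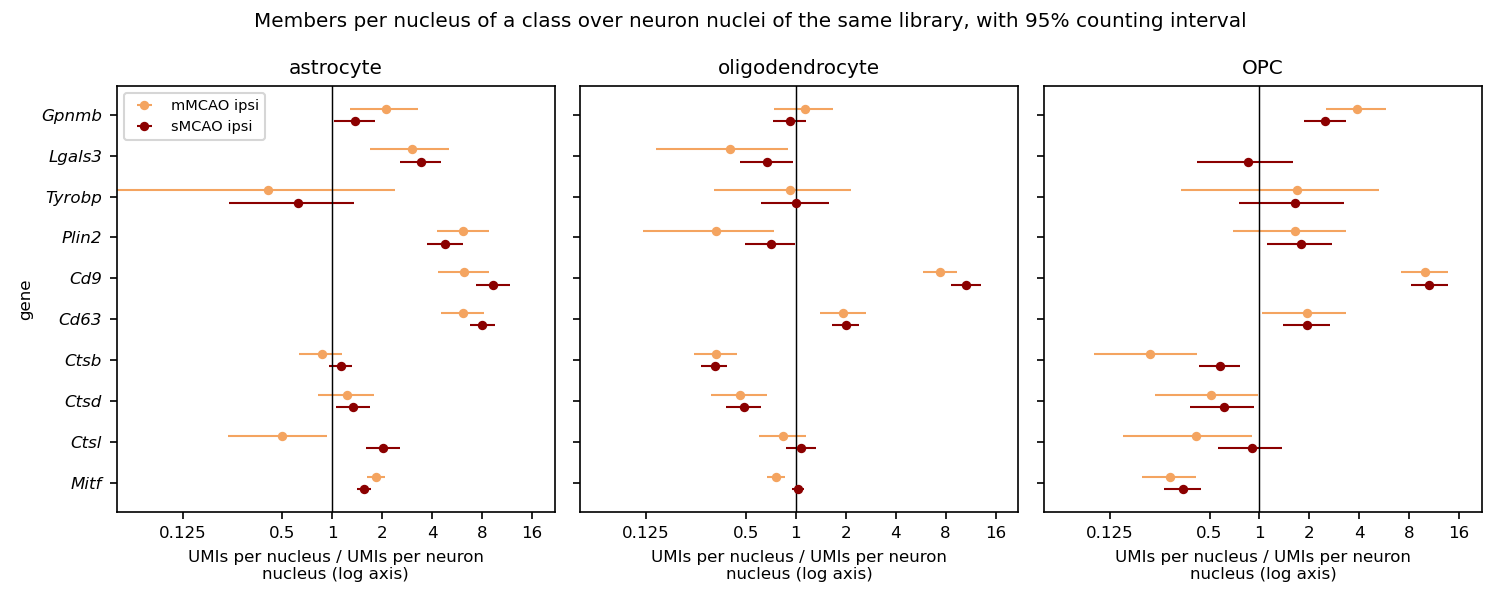
UMIs per nucleus of 10 members in astrocytes, oligodendrocytes and OPCs over UMIs per neuron nucleus of the same library (horizontal, log axis), for mMCAO ipsi and sMCAO ipsi; points are ratios and bars exact 95% counting intervals. Lgals3 in OPCs of mMCAO ipsi, with no UMI, is not drawn, and the lowest interval of Tyrobp in astrocytes runs past the axis. Cd9, Cd63 and Plin2 in astrocytes and Gpnmb in OPCs lie to the right of 1 in both libraries.

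Held-out myeloid genes (C1qa, C1qb, C1qc, Aif1, Fcgr3a, Laptm5, Ly86 and Cd53) were also counted in glial nuclei, and their part in the changes was not tested. Their summed level in astrocytes was 7.58 and 10.6 CPM in Sham, 5.40 and 8.86 in MCAO contra and 20.4 and 11.4 in MCAO ipsi, with 7 of the 8 genes detected and Fcgr3a at 0. In oligodendrocytes, with all 8 detected, it was 18.2 and 30.6, 13.4 and 21.4, and 39.0 and 23.3 CPM in the same groups. In OPCs, again with all 8, it was 0 and 40.8, 24.4 and 5.37, and 60.7 and 21.0. In ipsi OPCs these genes gave only 21 and 13 UMIs. For every 100 of them, ipsi OPCs held 133 and 485 Gpnmb UMIs against 43.8 and 81.2 in myeloid nuclei of the same libraries, 66.7 and 354 Cd63 UMIs against 4.67 and 11.5, and 42.9 and 408 Ctsb UMIs against 38.4 and 70.8. The Ctsb value of mMCAO ipsi, from 9 Ctsb UMIs, was thus close to that of myeloid nuclei. In ipsi astrocytes, with 13 and 17 UMIs of these genes, the lowest values of the called members were 231 and 547 for Ctsd against 17.5 and 29.3. In ipsi oligodendrocytes, with 40 and 45, they were 112 and 304 for Ctsl against 5.78 and 12.0. In glial nuclei without any UMI of the myeloid gate genes the members called against Sham, with the share of all genes called in the same fit, numbered 4 (10.7%) in astrocytes, 2 (4.71%) in oligodendrocytes and 1 (5.28%) in OPCs. Against MCAO contra they numbered 2 (7.24%), 0 (0.0331%) and 0 (8.24%). In OPCs only 5 members passed the filter in these nuclei, against 11 in the main fit. Gpnmb was 1 of these 5, and there it kept its call against Sham but lost that against MCAO contra. The member Tyrobp, the adaptor of TREM2, was too sparse in glia to be tested. Its mean in oligodendrocytes was 2.28 CPM in Sham, 2.41 in MCAO contra and 10.4 in MCAO ipsi. In OPCs the means were 0, 1.53 and 12.4 CPM in the same order, and in astrocytes 5.30, 3.56 and 3.12.

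Whether the change against Sham differed between glial classes was tested in 1 model over astrocytes, oligodendrocytes and OPCs, with 22 members tested. edgeR called 0 members for astrocytes against oligodendrocytes (4.51% of all genes), 0 for astrocytes against OPCs (1.17%) and 0 for OPCs against oligodendrocytes (1.03%). At an unadjusted p under 0.05 stood 3, 2 and 1 members, and no other tool was run on this model. The share of all genes at that level was not computed here. Cd9 had a log2 difference of 1.79 ± 0.72 (SE) for astrocytes minus oligodendrocytes (edgeR adjusted p = 0.177). Cd63 had -1.30 ± 0.60 (edgeR adjusted p = 0.266), in the other direction. No member can therefore be called particular to one glial class by this test.

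Further genes of the same pathways were called in few comparisons. Of 40 further lysosomal genes found, 17 were tested in astrocytes, 33 in oligodendrocytes, 8 in OPCs and 30 in microglia. edgeR and DESeq2 called 0 of them in any comparison. Against Sham 4, 8 and 0 were at an unadjusted p under 0.05 in astrocytes, oligodendrocytes and OPCs. Of all genes, 1686 of 6337, 2138 of 9769 and 994 of 5572 stood at that level in the same order. Of 11 subunit genes of the proton pump (V-ATPase), edgeR called Atp6v0c higher in oligodendrocytes against Sham (log2 fold change 1.15 ± 0.24 (SE), edgeR adjusted p = 0.0410). It was also called in OPCs against MCAO contra (log2 fold change 1.42 ± 0.47 (SE), edgeR adjusted p = 0.0389). No other subunit was called by edgeR, and DESeq2 called no subunit, Atp6v0c included, in any comparison. Of 20 further lipid-handling genes, Apoe, the lipid carrier apolipoprotein E, rose in astrocytes against Sham (log2 fold change 1.53 ± 0.27 (SE), edgeR adjusted p = 0.00537). Mgll, monoacylglycerol lipase, fell in astrocytes against MCAO contra (log2 fold change -0.72 ± 0.19 (SE), edgeR adjusted p = 0.0345) and in oligodendrocytes against Sham (log2 fold change -1.38 ± 0.29 (SE), edgeR adjusted p = 0.0399). Abcg1, a sterol exporter, fell in OPCs against MCAO contra (log2 fold change -1.75 ± 0.46 (SE), edgeR adjusted p = 0.00771). DESeq2 called neither Mgll nor Abcg1 in these comparisons. Median log2 fold changes against Sham in astrocytes, oligodendrocytes and OPCs were 0.12, 0.35 and 0.16 over the further lysosomal genes tested, 0.03, 0.36 and 0.16 over the pump subunits and -0.15, 0.12 and 0.08 over the lipid-handling genes. Against MCAO contra, with microglia last, they were 0.11, 0.11, 0.05 and 0.17 for the lysosomal genes, 0.09, 0.24, 0.10 and 0.22 for the pump and -0.38, -0.08, -0.21 and 0.41 for lipid handling.

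The 6 members with fewest myeloid UMIs are given by range, in microglia over the 4 MCAO libraries and in astrocytes, oligodendrocytes and OPCs over all 6. Cd68 ran from 0 to 12.4 CPM in microglia and from 0 to 6.46 CPM in the other glia, and reached 44.3 and 61.9 CPM in macrophages of mMCAO ipsi and sMCAO ipsi. Gaa, acid glucosidase, ran from 19.8 to 32.3 CPM and 5.78 to 44.3 CPM, and Gusb, glucuronidase, from 12.1 to 30.3 CPM and 0 to 15.2 CPM in the same nuclei. Lpl, lipoprotein lipase, ran from 0 to 21.9 CPM in microglia and 0 to 8.86 CPM in the other glia. Atp6v0d2, a pump subunit of osteoclasts and macrophages, reached at most 7.29 CPM in microglia, from 1 UMI, and 1.57 CPM in the other glia. Mcoln1, a calcium channel of the lysosomal membrane, gave no UMI in any of these classes, which at this depth does not show that it is absent.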

How the data were processed

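The deposited UMI count matrices held raw counts per gene and barcode, made by the authors from 10x libraries of nuclei with Cell Ranger 7.0.0 and the mRatBN7.2 genome with intronic reads included; per the labels no normalization was applied. Nuclei with at least 500 UMIs, 250 to 5000 genes and at most 5% mitochondrial counts were kept. A nucleus entered a class with at least 3 UMIs from at least 2 marker genes and 25 marker UMIs per 10000 (40 for neurons), nuclei that met the gates of 2 classes were left out, which also served for doublets since no caller was run, and myeloid nuclei were split by whether microglia or macrophage markers gave more UMIs. Myeloid nuclei with a tie entered neither class. Counts were summed per library and class, scaled to CPM for display, and tested with edgeR 4.0.16 (R 4.3.3; quasi-likelihood test, TMM, filterByExpr, Benjamini-Hochberg over all genes tested) over all 6 libraries in 3 groups of 2, with calls at adjusted p below 0.05 and log2 fold changes of 0.6 or more in either direction. Microglia were tested over the 4 MCAO libraries, a choice made after the class sizes were seen, because a class needed 20 nuclei in each library, and macrophages were not tested. The filter asks for its level of counts in 2 libraries, so a member can be tested through the ipsi libraries alone. Ratios between single libraries carry exact 95% Poisson intervals for counting error only and need at least 10 UMIs. The 26 members that were called or had at least 100 UMIs in myeloid nuclei of the ipsi libraries are given one by one in MCAO microglia. In other glia some of them are given by range or fold change only, and some not at all. The 2 hemispheres of an MCAO severity came from the same rats, so the rat pool was also fitted as a block; deviations from the group means correlated between them at 0.0199 in astrocytes, -0.171 in oligodendrocytes, 0.0546 in OPCs and -0.244 in microglia. DESeq2 1.42.0, other size factors, no filter, leaving out each library, stricter gates, other nucleus filters and the blocks were alternatives. The tests were also run on simulated counts, with independent libraries and with changes planted only in genes above a set level of expected counts. That run does not speak for members with few Sham UMIs or for libraries that share rats. The members, the lists and the gates were chosen with earlier results of these data known.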

Additional observations from a re-analysis of the deposited data

Results flagged for a closer look

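Lipa, the gene of lysosomal acid lipase, had opposite directions in 2 glial classes: its log2 fold change of MCAO ipsi against Sham was 1.68 ± 0.72 (SE) in astrocytes, with both ipsi libraries above both Sham libraries, and -0.60 ± 0.47 in oligodendrocytes, with both ipsi libraries below both Sham libraries, although Sham R and mMCAO ipsi both round to 12.7 CPM. The test of the difference itself gave a log2 difference of 2.33 ± 0.96 (edgeR adjusted p = 0.188), so the classes were not shown to differ, and neither change was called. Lipa rests on 3 UMIs in the Sham astrocytes. In oligodendrocytes its mean in MCAO contra, 10.3 CPM, also lay below the 13.4 of Sham and was close to the 9.70 of MCAO ipsi.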

How the results depend on the processing

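No call of the tests reversed under any alternative, while 1 ratio with an interval beside 1 did, that of Pla2g7 in microglia. Leaving out 1 library at a time gave 0 to 9 members called in astrocytes and 0 to 15 in oligodendrocytes and 0 to 1 in OPCs for MCAO ipsi against Sham, and 0 to 7, 0 to 13, 0 to 4 and, in microglia, 0 to 5 against MCAO contra. The highest counts in astrocytes, oligodendrocytes and microglia came from the fits without mMCAO ipsi. Those fits also called a larger share of all genes than the main fits did. In OPCs the highest count against MCAO contra came from the fits without Sham L or without Sham R. Those called a smaller share of all genes than the main fit. Against Sham DESeq2 called 1 member in astrocytes (7.97% of all genes) and, of 3 given an adjusted p, 0 in OPCs (4.47%). The stricter gate left 1 in astrocytes (9.17%) and 0 in oligodendrocytes (1.46%). Oligodendrocytes had 12 (7.78%) with no filter, 7 (5.22%) with mixed nuclei kept and 0 (0%) with only the 4 libraries compared. Astrocytes had 6 (6.69%) with no filter. Against MCAO contra, no filter gave 6 (5.94%) in astrocytes, 8 (4.73%) in oligodendrocytes and 2 (0.694%) in microglia. DESeq2 gave 1 (1.11%) in oligodendrocytes and 0 (2.87%) in OPCs against MCAO contra. Nuclei without myeloid UMIs gave 0 of 5 tested (8.24%) in OPCs there, and leaving out the deepest nuclei 4 (9.57%) in astrocytes. With the rat pool as a replicate block, members called against MCAO contra numbered 3 (10.1%) in astrocytes and 1 (0.266%) in oligodendrocytes. In OPCs they numbered 3 (10.6%) and in microglia 0 (0%). The block changed no call of a member other than Cd63 in astrocytes and oligodendrocytes. With the hemispheres crossed between the pools, chosen after seeing the data, the counts in the same order were 3 (10.6%), 3 (3.72%), 3 (10.1%) and 0 (0%). For sMCAO ipsi over mMCAO ipsi, the stricter gate and mixed nuclei kept gave 2 and 2 members below 1 in oligodendrocytes, 1 and 1 below 1 and 1 and 4 above 1 in OPCs, where leaving out the deepest nuclei gave 4. The stricter gate turned Pla2g7 in microglia to 0.961 and left 5 members above 1 for macrophages over microglia in mMCAO ipsi. The share of all genes was not computed for these ratio counts, and the cause of these shifts was not tested. OPCs under the stricter gate were not tested, since a library then held fewer than 20. Members with few or no Sham UMIs in glia have folds with wide counting intervals, and Sham microglia (9366 and 3681 UMIs) and macrophages (0 and 1013) were too shallow to be compared.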

Other observations

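Nuclei that met both the myeloid and the oligodendrocyte gate, a set chosen after the data were seen, entered only the alternative with mixed nuclei kept. They numbered 23, 24, 53, 47, 139 and 98 in Sham L, Sham R, mMCAO contra, sMCAO contra, mMCAO ipsi and sMCAO ipsi. In these nuclei Gpnmb stood at 0 and 0 CPM in the Sham libraries, 44.6 and 47.5 in the contra libraries and 186 and 488 in the ipsi libraries. Lgmn, the legumain gene, stood at 246, 272, 241, 345, 468 and 955 CPM in the same order, highest in sMCAO ipsi. In neuron nuclei Gpnmb stood at 0.198, 0.280, 0.239, 0.637, 4.98 and 11.3 CPM, with both ipsi libraries above the other 4.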
